A study of Mus musculus with 24 samples.

Results

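The genes described here are 7 feedback inhibitors of MAP kinase and receptor tyrosine kinase signalling: Dusp1, Dusp4, Dusp5, Dusp6, Spry2, Spry4 and Errfi1. They were chosen by name, with earlier results of these data known, from the 19661 genes of the deposited expression table. All 7 passed the filter on low values, which asked for a 24-animal mean of 1 RPKM or more. RPKM is a read count scaled by transcript length and library size. RNA from the dorsal hippocampus of both sides was sequenced in 24 mice, 6 in each of 4 groups. The groups cross genotype with behaviour. Wild-type mice on the strain background C57BL/6J and Baf53b+/- mice on the background B6J.129S6-Actl6b<tm1Grc> formed a home cage group and a trained group each; trained mice were killed 30 minutes after a session of Object Location Memory, a task of learning where objects stand. Baf53b, encoded by Actl6b, is a neuronal subunit of the BAF chromatin remodelling complex. The heterozygotes carry 1 mutant allele of it, home cage mice are the only controls, and ages are not given in the labels. Strain background and genotype cannot be told apart. The comparisons ask how training changed these transcripts and whether the change depended on Baf53b.

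When a growth factor or neurotransmitter activates a receptor, the signal can pass through Ras to a chain of kinases that ends in ERK, a MAP kinase. JNK and p38 are MAP kinases at the end of separate chains. The genes described here act as brakes on these routes. Dusp1, Dusp4, Dusp5 and Dusp6 encode phosphatases that remove the activating phosphates from MAP kinases, Sprouty proteins restrain signalling between receptor tyrosine kinases and ERK, and Errfi1 (Mig6) binds and inhibits the EGF receptor. Several of them are themselves transcribed when the pathway is active, which closes a negative feedback loop. In hippocampal neurons, ERK signalling is known for its role in synaptic plasticity and memory formation.

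RefSeq promoter windows came from GRCm38.p6, a different build from the mm9 of the expression table. Those of 5 of the 7 genes, 6 windows in all, were searched. They ran from 250 bases before to 50 bases after each transcript start. They are printed 5′ to 3′ on the strand of the gene. Capitals mark TGACG or its reverse complement CGTCA, the core of the cAMP response element bound by CREB; where both are joined, they form the full element TGACGTCA. In Dusp5, capitals also mark the CArG boxes bound by serum response factor. The windows of Dusp1, Dusp5 and Errfi1 are shown for these letters, and that of Spry2 as the gene whose RNA did not pass the test in any training comparison.
Dusp1, chr17:26508423-26508722, minus strand: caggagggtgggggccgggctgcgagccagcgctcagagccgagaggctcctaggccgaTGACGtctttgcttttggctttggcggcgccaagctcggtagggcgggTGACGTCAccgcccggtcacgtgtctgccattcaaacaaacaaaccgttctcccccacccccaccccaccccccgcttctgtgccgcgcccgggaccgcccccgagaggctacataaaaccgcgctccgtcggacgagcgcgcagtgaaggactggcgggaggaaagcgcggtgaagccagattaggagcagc
Dusp5, chr19:53528895-53529194, plus strand: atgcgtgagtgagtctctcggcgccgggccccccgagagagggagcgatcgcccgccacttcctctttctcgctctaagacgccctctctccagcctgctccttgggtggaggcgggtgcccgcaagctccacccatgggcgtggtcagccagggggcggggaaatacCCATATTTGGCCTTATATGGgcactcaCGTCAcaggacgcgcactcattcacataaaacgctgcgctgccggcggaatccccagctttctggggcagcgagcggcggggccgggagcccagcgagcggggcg
Errfi1, chr4:150854820-150855119, plus strand: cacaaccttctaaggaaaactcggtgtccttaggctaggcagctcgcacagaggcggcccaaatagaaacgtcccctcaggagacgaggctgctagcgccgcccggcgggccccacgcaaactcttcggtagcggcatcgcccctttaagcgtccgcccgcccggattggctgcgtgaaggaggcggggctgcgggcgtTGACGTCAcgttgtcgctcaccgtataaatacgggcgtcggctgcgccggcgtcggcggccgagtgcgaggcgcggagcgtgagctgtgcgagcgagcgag
Spry2, chr14:105896770-105897069, minus strand: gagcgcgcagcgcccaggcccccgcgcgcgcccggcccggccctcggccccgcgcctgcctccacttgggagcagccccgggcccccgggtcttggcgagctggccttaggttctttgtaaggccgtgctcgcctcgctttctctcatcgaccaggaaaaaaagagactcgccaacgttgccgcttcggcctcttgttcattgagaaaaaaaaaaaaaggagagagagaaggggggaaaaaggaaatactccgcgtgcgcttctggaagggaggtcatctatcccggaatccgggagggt

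The Dusp1 window holds the full element TGACGTCA 143 bases before the transcript start and a further TGACG 191 bases before it. Errfi1 has the full element 51 bases before the transcript start in the window shown, and its other window has none. Dusp5 has CGTCA 55 bases before the start, next to a pair of CArG boxes at 82 and 72 bases before it. None of the marked motifs was found in the windows of Spry2 or Dusp6, although Dusp6 rose after training. Searched on both strands over 32851 windows of the same length, the full element was found in 1.79%, its core in 20.8%, and a CArG box in 1.63%. The E-box CACGTG, found in 7.15% of windows, occurred 126 bases before the Dusp1 start. The AP-1 site TGANTCA, in 7.81% of windows, and the glucocorticoid response element, in 0.00913%, were in none of the 6 windows. No window of Dusp4 or Spry4 was searched, so these results say nothing of those genes. The motifs were chosen after the windows had been seen, and a match is a stretch of letters, not a measured binding site.

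The read total behind the scaling was not given. An estimate of relative depth from the steps between low values was 28.5 to 47.0 M reads per library. At that estimate 1 RPKM of a transcript of 2 kb stands for 56.9 to 94.0 reads. Actl6b checked the genotype labels: in the home cage it was 30.0 ± 1.44 RPKM in heterozygotes and 51.3 ± 1.26 in wild type, or 58.5%, and after training it was 55.7% (SD, n = 6 per group). The groups did not overlap (exact permutation test, two-sided, p = 0.00216 in each condition, the smallest that 6 against 6 animals allow). All 17 marker genes of hippocampal cell types were detected in every animal. Choroid plexus, a tissue beside the hippocampus, was present in unequal amounts: the summed level of its 12 marker genes ran from 15.3 to 4767 RPKM. It exceeded 3 times the median in 9 libraries, which leaves 5 wild-type home cage, 3 wild-type trained, 3 heterozygous home cage and 4 heterozygous trained animals, and exceeded 10 times the median in 6. In bulk tissue, fewer cells of a type and less RNA per cell cannot be told apart.

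Training raised most of the brakes. Averaged over genotypes, 6 of the 7 genes passed the test as higher in trained mice: Dusp1, Dusp5, Dusp6, Spry4, Dusp4 and Errfi1. Of all 12399 genes tested, 3.26% passed as higher in that comparison (limma, Benjamini-Hochberg adjusted p under 0.05). In wild type alone 4 of 7 passed, against 0.96% of all genes, and in heterozygotes 6 of 7, against 0.887%. The median log2 difference of the 7 genes, on the scale log2(RPKM + 0.5) used for all log2 values here, was 0.42 averaged over genotypes, against 0.00 (0.004) over all genes. Every trained animal lay above every home cage animal, 12 against 12, for Dusp1, Dusp4, Dusp5, Dusp6 and Spry4. This held for 0.379% of all genes. Because the 7 genes were chosen with earlier results of these data known, these shares describe them and are no test of the family.

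**Figure D1:**
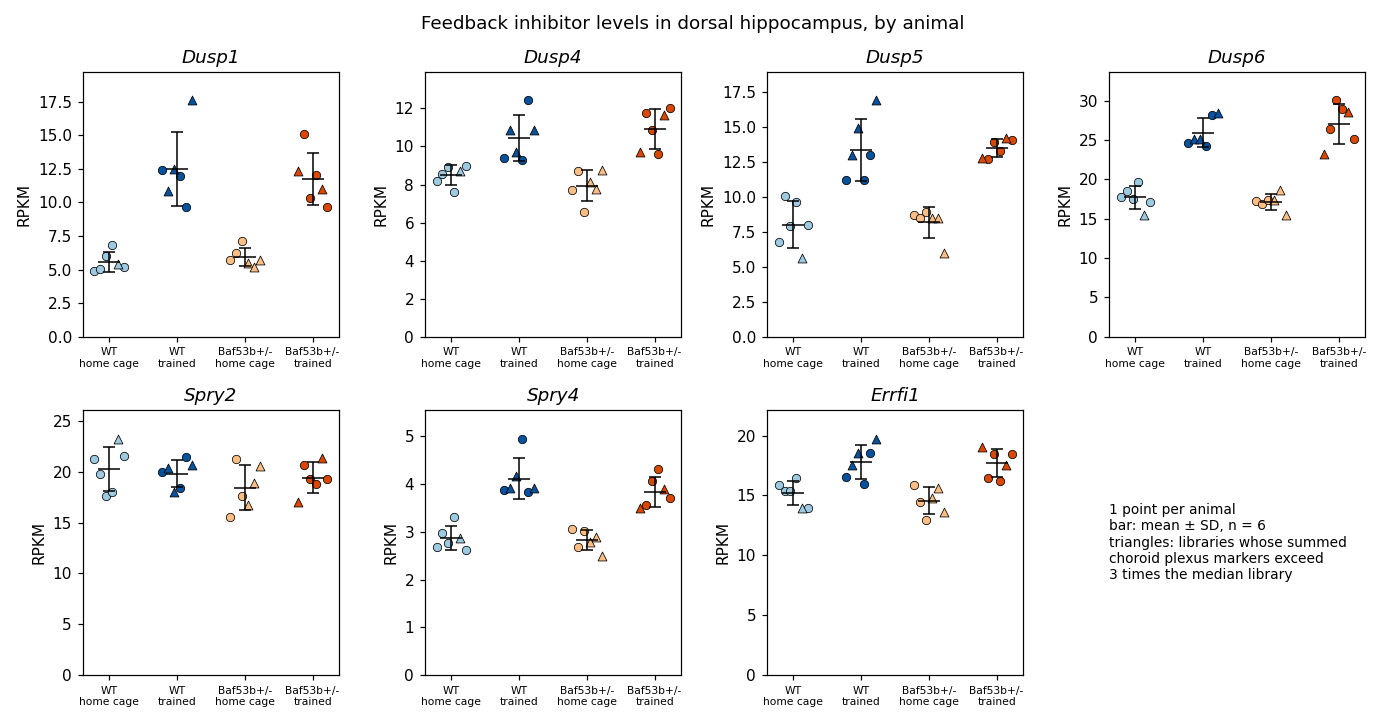
Level of each gene in RPKM (vertical axes, starting at 0) in each of the 24 animals, by genotype and condition; points are animals, triangles are libraries whose summed choroid plexus markers exceeded 3 times the median, and bars give the mean and SD of 6. Dusp1, Dusp4, Dusp5, Dusp6 and Spry4 separate the 12 trained from the 12 home cage animals, and Spry2 does not.

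Dusp1 (MKP-1; chromosome 17, 26642536 to 26645417 in mm9) encodes a nuclear phosphatase of p38, JNK and ERK. Its fold change was the largest of the 7. In wild-type home cage mice its lowest, median and highest levels were 4.92, 5.30 and 6.84 RPKM, and in trained wild type 9.67, 12.2 and 17.6 RPKM. Heterozygotes went from 5.23, 5.75 and 7.15 RPKM in the home cage to 9.67, 11.5 and 15.1 RPKM after training. In both genotypes the lowest trained animal was above the highest home cage animal. The mean rose 2.24-fold in wild type, from 5.57 ± 0.729 to 12.5 ± 2.73 RPKM, and 1.98-fold in heterozygotes, from 5.94 ± 0.678 to 11.8 ± 1.93 RPKM (SD, n = 6). In log2 units this was 1.08 ± 0.11 (SE) in wild type and 0.92 ± 0.11 in heterozygotes (limma, adjusted p = 2.02e-06 and 2.79e-05). By size of the averaged difference Dusp1 was in place 9 of the 12399 genes. The trained mice with the most Dusp1, animal 2436 in wild type and 2410 in heterozygotes, also had the most Fos, an immediate early gene, in their groups, and those with the least Dusp1, 2433 and 2435, had the least Fos.

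Dusp5 (chromosome 19, 53603808 to 53615812 in mm9) encodes a nuclear phosphatase specific for ERK. Its lowest, median and highest levels were 5.64, 7.96 and 10.1 RPKM in wild-type home cage mice and 11.2, 13.0 and 16.9 RPKM after training. In heterozygotes they were 5.97, 8.52 and 8.90 RPKM in the home cage and 12.7, 13.6 and 14.2 RPKM after training. The groups did not overlap in either genotype. Mean levels rose 1.67-fold in wild type and 1.65-fold in heterozygotes, with log2 differences of 0.71 ± 0.12 and 0.70 ± 0.12 (SE; limma, adjusted p = 0.00118 and 0.00146). The lowest home cage values in both genotypes came from choroid-rich libraries, animals 2425 and 2424. The other choroid-rich home cage libraries, heterozygous animals 2417 and 2422, were at 8.50 and 8.52 RPKM, near their group's median. Without the 9 libraries above 3 times the choroid median the wild-type difference was 0.47 (0.465) and no longer passed (adjusted p = 0.0746), and without the 6 above 10 times it was 0.59 and passed (adjusted p = 0.0069). The heterozygote difference passed without the 9 libraries, at 0.60 (limma, adjusted p = 0.0188).

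Dusp6 (MKP-3; chromosome 10, 98725865 to 98730123 in mm9) encodes the cytoplasmic phosphatase of ERK. Wild-type home cage mice had lowest, median and highest levels of 15.5, 17.7 and 19.7 RPKM, and trained wild type 24.2, 25.1 and 28.4 RPKM. The heterozygous levels were 15.5, 17.3 and 18.7 RPKM in the home cage and 23.2, 27.4 and 30.1 RPKM after training. Again no trained animal reached down to a home cage animal. The rise was smaller in fold than that of Dusp1, 1.47 times in wild type (17.7 ± 1.42 to 25.9 ± 1.87 RPKM) and 1.57 times in heterozygotes (17.2 ± 1.02 to 27.0 ± 2.59 RPKM; SD, n = 6). In mean RPKM it was larger than that of Dusp1, at 8.24 against 6.93 in wild type and 9.86 against 5.82 in heterozygotes. It had the smallest p of the 7 genes in the averaged comparison: 0.59 ± 0.04 log2 units (SE; limma, adjusted p = 9.16e-10). It passed in both genotypes without the 9 choroid-rich libraries, at 0.49 in wild type and 0.67 in heterozygotes (adjusted p = 0.00178 and 9.43e-05).

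Dusp4 (MKP-2; chromosome 8, 35870664 to 35882948 in mm9) encodes a nuclear phosphatase of ERK and JNK. Lowest, median and highest levels were 7.64, 8.61 and 8.98 RPKM in wild-type home cage mice and 9.30, 10.3 and 12.4 RPKM in trained wild type. For heterozygotes they were 6.58, 7.95 and 8.74 RPKM in the home cage and 9.61, 11.3 and 12.03 RPKM after training. No trained value overlapped with a home cage value in either genotype, and the steps were smaller than for the other 3 phosphatases. The log2 difference was 0.44 ± 0.07 in heterozygotes (SE; limma, adjusted p = 0.00108) and 0.28 ± 0.07 in wild type, which missed the threshold (adjusted p = 0.0632). Averaged over genotypes it was 0.36 ± 0.05 (adjusted p = 7.37e-05). The wild-type value passed in 2 of 24 fits with 1 animal left out, those without trained animal 2421 and heterozygous home cage animal 2415 (adjusted p = 0.0434 and 0.0349; up to 0.143 in the others), and in 0 of 10 other alternatives (up to 0.381, without the 9 choroid-rich libraries). Without those 9 libraries the heterozygote value was 0.51 and did not pass (limma, adjusted p = 0.0877). The trained mouse with the most Dusp4 in each genotype, 2433 and 2435, was the one with the least Fos and Dusp1.

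Spry4 (chromosome 18, 38745919 to 38760922 in mm9) encodes a Sprouty inhibitor of the Ras to ERK route and was the least abundant of the 7. Its lowest, median and highest levels were 2.62, 2.82 and 3.32 RPKM in wild-type home cage mice and 3.84, 3.92 and 4.95 RPKM after training. Heterozygotes had 2.50, 2.84 and 3.05 RPKM in the home cage and 3.50, 3.80 and 4.31 RPKM after training. Trained and home cage animals did not overlap. Means rose 1.43-fold in wild type and 1.36-fold in heterozygotes, or 0.45 ± 0.06 and 0.39 ± 0.06 log2 units (SE; limma, adjusted p = 8.08e-05 and 0.000905). With the 9 choroid-rich libraries left out, wild type passed at 0.48 (adjusted p = 0.0332) and heterozygotes, at 0.37, did not (adjusted p = 0.18).

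Spry2 (chromosome 14, 106291164 to 106296036 in mm9), another Sprouty gene, had the highest mean home cage level of the 7 and passed in no training comparison. Its lowest, median and highest levels were 17.7, 20.5 and 23.3 RPKM in wild-type home cage mice and 18.02, 20.2 and 21.4 RPKM in trained wild type. In heterozygotes they were 15.5, 18.3 and 21.3 RPKM in the home cage and 17.0, 19.3 and 21.4 RPKM after training. All 6 trained wild types lay within the range of their home cage group, and 1 trained heterozygote lay above that of its own. The averaged log2 difference was 0.02 (0.025), with a 95% interval from -0.08 to 0.13 (limma, adjusted p = 0.878). The upper bound lies below the averaged difference of each of the other 6 genes. Spry1, a further Sprouty gene of the table that is named here after its values were seen, stood at 0.13 ± 0.05 (SE) on average and did not pass (limma, adjusted p = 0.192).

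Errfi1 (Mig6; chromosome 4, 150229200 to 150242989 in mm9), the inhibitor of the EGF receptor family, had the smallest fold change of those that rose. Its lowest, median and highest levels were 13.97, 15.4 and 16.5 RPKM in wild-type home cage mice and 15.9, 18.02 and 19.75 RPKM after training. Heterozygous levels were 12.97, 14.6 and 15.9 RPKM in the home cage and 16.2, 17.97 and 19.1 RPKM after training. All 6 trained heterozygotes were above their home cage group, as were 5 of 6 trained wild types. The log2 difference was 0.27 ± 0.06 in heterozygotes (SE; limma, adjusted p = 0.0108), 0.22 ± 0.06 in wild type (adjusted p = 0.0548) and 0.25 ± 0.04 averaged (adjusted p = 0.000354). Wild type passed in 4 of 24 fits with 1 animal left out, those without home cage animal 2418, trained animal 2403 or 2421, or heterozygous home cage animal 2415 (adjusted p = 0.035, 0.0498, 0.0275 and 0.0374; up to 0.157 in the others), and in 0 of 10 other alternatives. Without the 9 choroid-rich libraries Errfi1 passed neither in wild type (0.14, 0.135 unrounded, adjusted p = 0.499), nor in heterozygotes (0.26, adjusted p = 0.246), nor on average (0.20, adjusted p = 0.0999). Without the 6 above 10 times the median it passed on average but not in heterozygotes (0.25, limma adjusted p = 0.217).

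**Figure D2:**
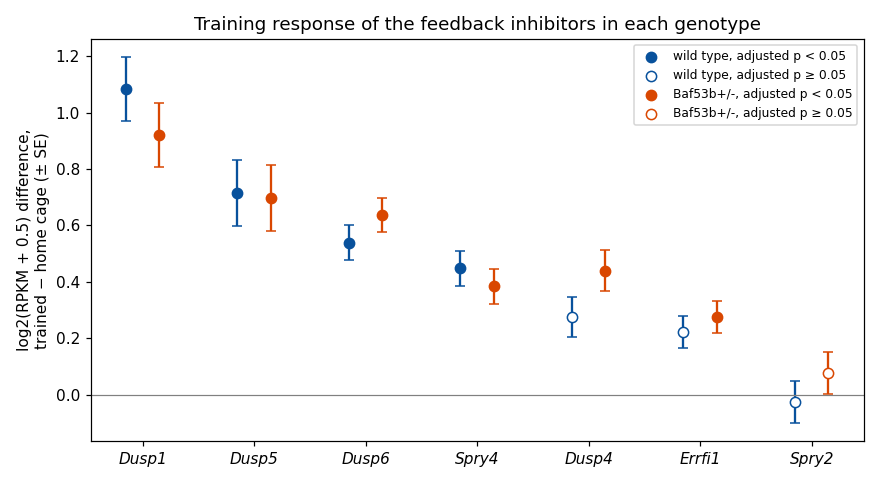
Training response of each gene, as the difference in log2(RPKM + 0.5) between trained and home cage mice (vertical axis, ± SE, 6 animals a group), for wild type and heterozygotes; filled points have an adjusted p under 0.05 by limma. Dusp1 stands at 1.08 and 0.92, Spry2 at -0.03 and 0.08.

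The responses of the 7 genes differed in size from one another. All 21 pairs were compared, each by the difference of the 2 log2 responses and an exact two-sided permutation test that exchanged trained and home cage labels within genotype (853776 relabellings), with p-values adjusted over the 21 pairs. Of these, 18 passed. Dusp1 responded more than Dusp5 by 0.30 log2 units (adjusted p = 0.0116), more than Dusp6 by 0.41 (adjusted p = 0.000756) and more than Spry2 by 0.98 (adjusted p = 1.23e-05; its raw p, 2.34e-06, is the smallest that these relabellings can give). The Sprouty genes differed from each other: the response of Spry2 minus that of Spry4 was -0.39 log2 units (exact permutation test, adjusted p = 0.000295). The 3 pairs that did not pass were Dusp5 and Dusp6 (difference 0.12, adjusted p = 0.0966), Dusp4 and Errfi1 (0.11, adjusted p = 0.0966) and Dusp4 and Spry4 (-0.06, adjusted p = 0.511), by the same exact permutation test. Without the 9 choroid-rich libraries 12 of 21 pairs passed. The 6 lost were Dusp1 with Dusp6 (adjusted p = 0.0503 by the exact permutation test), Dusp4 with Dusp5 and with Dusp6, Spry4 with Dusp5 and with Dusp6, and Spry2 with Errfi1 (-0.22 with all libraries, -0.13 without the 9).

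**Figure D3:**
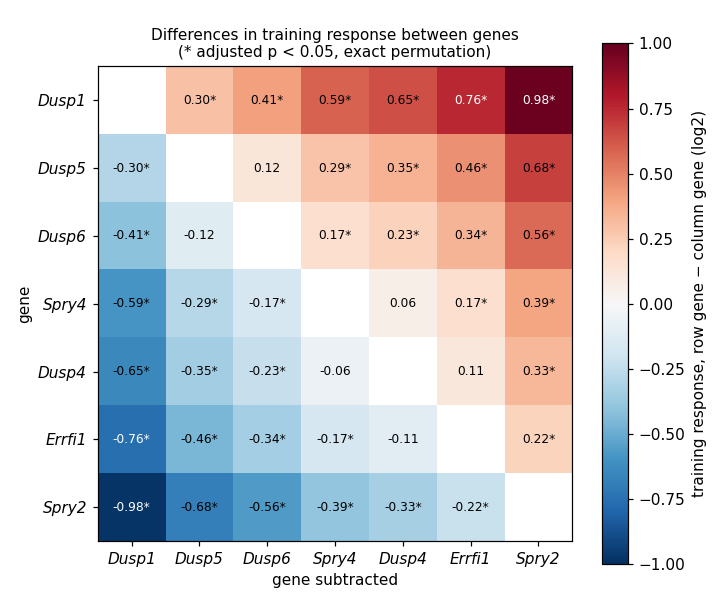
Difference in averaged training response between each pair of genes, in log2 units, row gene minus column gene; an asterisk marks an adjusted p under 0.05 by the exact permutation test over the 24 animals. The row of Dusp1 holds the highest differences, up to 0.98 against Spry2.

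No effect of genotype on any of the 7 was detected. In the home cage, after training, averaged over conditions and as a difference in training response, 0 of 7 passed, and 0 had an unadjusted p under 0.05 (limma). Among all genes, 0.00807% passed in the home cage, 0.00807% after training, 0.0242% on average and 0.0% for the difference in response. The intervals say how large an effect the data still allow. For Dusp1 the response of heterozygotes minus that of wild type was -0.16 log2 units (95% interval -0.49 to 0.17), and for Dusp5 it was -0.02 (-0.36 to 0.33). For Dusp4 it was 0.16 (-0.05 to 0.38), for Dusp6 0.10 (-0.08 to 0.28) and for Spry4 -0.06 (-0.24 to 0.12). Spry2 and Errfi1 gave 0.10 (-0.11 to 0.32) and 0.05 (-0.11 to 0.22), and the limma adjusted p for all 7 lay between 0.985 and 0.997. Home cage genotype differences ran from -0.13 for Spry2 (95% interval -0.29 to 0.02) to 0.09 for Dusp1 (-0.15 to 0.32).

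Resting levels did not follow the order of the responses. Over the 12 home cage animals the mean was 19.4 ± 2.31 RPKM for Spry2, 17.4 ± 1.21 for Dusp6, 14.9 ± 1.07 for Errfi1, 8.21 ± 0.704 for Dusp4, 8.10 ± 1.36 for Dusp5, 5.75 ± 0.698 for Dusp1 and 2.85 ± 0.222 for Spry4 (SD, n = 12). RPKM is scaled by length, so these levels can be set beside each other only roughly. The annotation behind the lengths and the handling of shared reads were not given. Only 2 neighbours in the order had ranges that did not overlap, Errfi1 above Dusp4 and Dusp1 above Spry4. Dusp1 was also the most variable after training, with a coefficient of variation of 21.8% in wild type and 16.4% in heterozygotes, while Dusp5 had 4.89% in trained heterozygotes.

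The genes whose profile over the 24 animals was closest to each member were found by the root-mean-square difference after scaling each gene to an SD of 1, and are named as descriptions. Nearest to Dusp1 were Ier2, Fos and Nr4a1 (0.206, 0.295 and 0.303 SD units). Dusp6 lay nearest to Egr2, Nr4a1 and Arc (0.267, 0.268 and 0.270), and Dusp5 to Dusp6, Junb and Nr4a1 (0.384, 0.405 and 0.406). Those names are immediate early genes apart from Dusp6 itself. Spry4 was nearest to Sik1, Dusp6 and Nr4a1 (0.429, 0.469 and 0.474). Dusp4 was nearest to Kdm6b, Dnajb5 and Egr3 (0.456, 0.489 and 0.496) and Errfi1 to Taf5, Nfil3 and Ddit4 (0.477, 0.512 and 0.527), a wider gap than for Dusp1. All 24 animals are shared by these measures, and the group difference itself enters each of them.

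Of 108 other listed genes of the pathway, in 8 groups, 88 were tested. In the averaged comparison 5 passed as higher and 0 as lower, where 3.26% of all genes passed as higher and 0.911% as lower. Their median log2 difference was 0.01 (0.014). Of 10 tested transcripts known to follow ERK activity 2 passed and the rest did not, with a list median of 0.12 (0.116). The 2 were Egr1, a transcription factor, at 1.23 ± 0.05 and Fos at 2.56 ± 0.13 (± SE, limma adjusted p = 2.11e-14 and 2.52e-12). Among 4 other tested MAP kinase phosphatases 0 passed, with values from 0.04 to 0.12 (Dusp10 at 0.12, adjusted p = 0.33, and Dusp16 at 0.10, adjusted p = 0.381). Among 13 other inhibitors of Ras and receptor kinases, Spred1, a relative of the Sprouty genes, rose by 0.14 ± 0.03 (limma, adjusted p = 0.00598), and 12 did not pass. Mknk2, a kinase downstream of ERK, rose by 0.16 ± 0.03 (adjusted p = 0.00313). Spred1 passed in 7 of 9 alternatives (adjusted p up to 0.0693) and Mknk2 in 8 of 9 (up to 0.0785). Bdnf, the ligand of the TrkB receptor, was higher by 0.18 ± 0.05 (limma, adjusted p = 0.0394), a call kept by 4 of 9 alternatives and by 10 of 24 fits with 1 animal left out.

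The lists of kinases and receptors that the brakes act on were too short for a count of 0 to stand apart from the 4.17% of all genes that passed in either direction. Of 16 tested genes of the ERK cascade 0 were called, with a median of -0.01 (-0.005), and Araf, a kinase of the RAF family, stood at -0.04 (limma, adjusted p = 0.44). Of 10 tested genes of the JNK and p38 routes 0 passed, with Map2k4 at -0.09 (limma, adjusted p = 0.0576). Of 12 tested receptor tyrosine kinases 0 passed, with Pdgfra at -0.10 (adjusted p = 0.222) and Ntrk3 at -0.07 (adjusted p = 0.296).

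**Figure D4:**
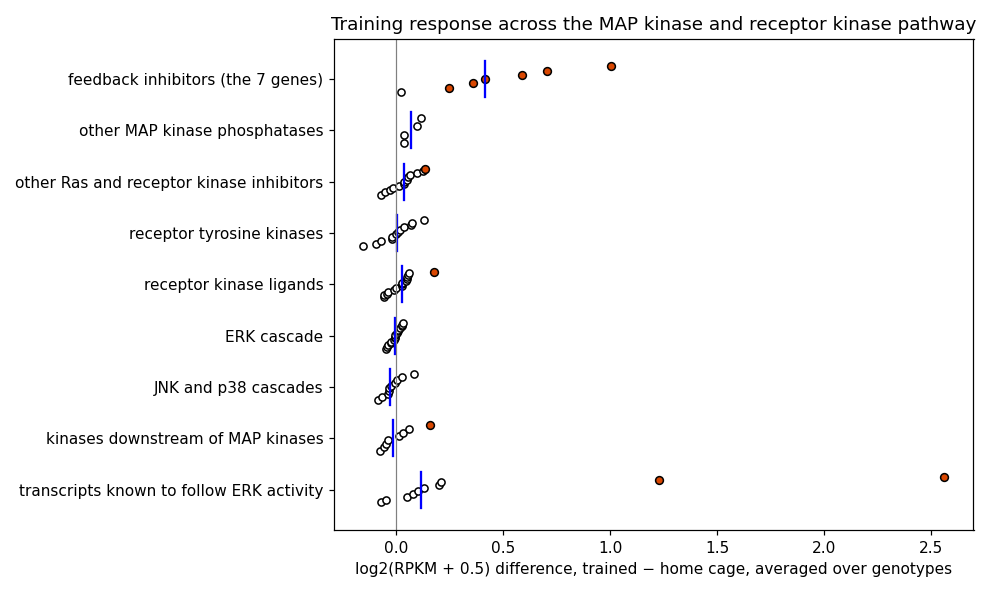
Training response averaged over genotypes, as the difference in log2(RPKM + 0.5) (horizontal axis), for each tested gene of the 7 feedback inhibitors and of 8 other groups of the pathway (vertical axis); filled points have an adjusted p under 0.05 by limma, and blue lines are group medians. The feedback inhibitors have a median of 0.42 and the 88 other genes one of 0.01. All lists were chosen with earlier results of these data known.

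No marker of another cell type or of a hippocampal field passed the training test in either genotype. For choroid plexus 0 of 11 tested markers were called, with summed levels of 29.0 to 1647 RPKM in wild-type home cage, 30.7 to 1415 in trained wild type, 15.3 to 4767 in heterozygous home cage and 16.2 to 2376 in trained heterozygotes. Their median log2 difference was 0.27 in wild type and -0.39 in heterozygotes. The 6 dentate gyrus markers had medians of -0.16 in wild type and 0.15 in heterozygotes, and the 3 CA3 markers -0.19 and -0.09 (-0.085). Oligodendrocyte markers were above 0 in 6 of 7 and 7 of 7 cases (medians 0.02 and 0.15), and endothelial and mural markers in 12 and 15 of 17 (0.05 and 0.07). The share of any cell type in the responses was not tested.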

How the data were processed

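Per the labels' protocols, cDNA came from the TruSeq RNA v2 kit and was read for 50 cycles from a single end. Strand is lost in that kit, so genes that overlap, antisense ones included, share reads. CASAVA 1.8.2, Bowtie 0.12.8 and mm9 are named in the submitters' processing notes. The authors deposited 1 table of RPKM values per gene and animal; the annotation, the read total behind the scaling and the handling of shared reads were not given in the sources used here. RPKM values are not counts, so no count test was run.

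Of 19661 genes, the 12399 with a mean of at least 1 RPKM were tested, which hold 99.51% of all RPKM. Values were taken as log2(RPKM + 0.5) and fitted in 1 limma model (3.58.1, R 4.3.3) of the 4 groups with robust, trended variances; p-values were adjusted by Benjamini-Hochberg over all 12399 genes, with a threshold of 0.05. A pseudocount understates the change of low genes. The script was tested on simulated data. Each replicate is a separate animal, named by its number. Libraries were sequenced in 4 pools whose animals the labels do not give, so no batch fit was possible.

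Relative depth was recovered from whole-read steps in 971 genes with 1 exon; at the chosen totals 42.7 to 51.1% of values were whole to within 0.05 reads. Alternatives were another pseudocount, filter, scaling or fit, a sex or choroid covariate, leaving out each animal, and leaving out choroid-rich libraries; the second choroid limit, 10 times the median, was chosen after seeing the data. The members and lists were chosen with earlier results of these data known. Besides the 7 genes and Actl6b, up to 4 genes of each pathway list that passed, or else the 2 with the smallest p, and the 3 genes closest to each member that passed, are named, except 1 gene that is not reported here. Spry3 and Hras were not analysed here.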

Additional observations from a re-analysis of the deposited data

Results flagged for a closer look

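Each of the 7 genes was checked in each of the 4 groups, 28 in all, for an animal set apart from its nearest neighbour by a share of the group's range beyond Dixon's 95% limit for 6 animals. Chance passes that limit in about 1 of 20 groups, and 3 groups passed. Dusp1 was 17.61 RPKM in trained wild-type animal 2436 (gap 0.646 of the range). That animal also had the highest Fos, Dusp5, Dusp6 and Errfi1 of its group. Its choroid plexus markers were 4.9 times the median, and its estimated depth, 28.5 M reads, was the lowest of all libraries. Without animal 2436 the wild-type log2 difference of Dusp1 was 0.98 (limma, adjusted p = 1.28e-06). Dusp5 was 5.973 RPKM in heterozygous home cage animal 2424 (gap 0.865), whose choroid plexus markers were 115 times the median; without it the heterozygote difference of Dusp5 was 0.61 (0.615; limma, adjusted p = 0.00421). Spry4 was 4.954 RPKM in trained wild-type animal 2421 (gap 0.704), and without it the wild-type difference of Spry4 was 0.40 (limma, adjusted p = 0.000159).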

How the results depend on the processing

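No paired analysis was possible because each animal number occurs in 1 group only. No called difference of the 7 genes changed sign in any alternative. The number of genes called higher in heterozygotes, 6 of 7, was 3 without the 9 libraries above 3 times the choroid median; across all alternatives it ran from 3 to 6, in wild type from 3 to 6 and on average from 5 to 6. No called training difference lost its call when 1 animal was left out. Counts over all genes moved more: 134 genes changed in wild type, against 75 in a fit of those 2 groups alone, 65 without the 6 libraries above 10 times the choroid median and 35 without the 9. In heterozygotes 128 became 85, 51 and 32, and on average 517 became 262 without 6 and 129 without 9 libraries. Fewer animals entered these fits, and how much of the loss came from that was not tested. A sex or choroid covariate changed no call of the 7 genes. Animals with more Ddx3y than Xist RNA were taken as male. They were 5 of 6 in heterozygous home cage mice and 3 of 6 in each other group. Home cage mice are the only controls, so learning cannot be told apart from handling.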
